A study of Homo sapiens with 8 samples.

Results

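The genes described here are 10 genes of Hippo/YAP signaling, taken from the table by symbol and, like the gene lists set beside them, chosen with earlier results of these data known: the coactivators YAP1 and WWTR1 (encoding TAZ), their DNA-binding partners TEAD1 and TEAD4, the kinase LATS2, the LIM protein AJUBA, and the target genes CCN1, CCN2, ANKRD1 and AMOTL2. All 10 were found among the 17561 genes of the deposited table. They were measured by mRNA sequencing in HepG2, a human hepatocellular tumor line, harvested 48 h after cells received pGRHL2 or pcDNA3. The pGRHL2 plasmid encodes the epithelial transcription factor GRHL2 fused to a flag tag, driven by the EEF1A1 promoter, and also encodes a green fluorescent protein, while pcDNA3 is a general-purpose vector, so that GRHL2, the promoter, the fluorescent protein and the plasmid backbone cannot be told apart as the source of a difference. There were 4 libraries per plasmid, 8 in all, which the study describes as independent biological replicates of 1 cell line.

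In the Hippo pathway, the kinases STK3 and STK4 activate the kinases LATS1 and LATS2, which phosphorylate YAP1 and WWTR1 and hold them in the cytoplasm. Unphosphorylated YAP1 and WWTR1 enter the nucleus, bind TEAD factors and switch on genes such as CCN1, CCN2 and ANKRD1, as well as LATS2 and AMOTL2, which feed back to restrain them. In the liver, YAP activity is high in bile duct cells and low in mature hepatocytes, and forced YAP activity makes hepatocytes take on biliary features. YAP1 is mainly controlled through phosphorylation and location in the cell, which mRNA levels do not measure.

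The upstream sequences of the target genes are shown first, since TEAD factors act through the letters GGAATG, which read CATTCC on the other strand. RefSeq promoter entries (GRCh38.p14) were matched for 7 of the 10 genes, in 10 entries, and TEAD1, TEAD4 and CCN1 had none. In the 250 bases before the start, 5 of these 7 genes held the TEAD letters in at least 1 entry, and LATS2 and WWTR1 did not. Over all 35116 entries, 11.89% held these letters at least 1 time, 0.9397% at least 2 times and 0.08258% at least 3 times. These shares count entries, whereas 5 of 7 counts genes, some of which had 2 entries, so the figures are not in the same unit. CCN2 had 3 matches, which begin 169, 104 and 95 bases before its start and do not overlap, and ANKRD1 had 2 matches, 220 and 128 bases before its start. The 250 bases before both starts are given 5′ to 3′ on the strand of the gene (minus in both), with the TEAD letters in capitals, for CCN2 at chr6:131951373-131951622 and for ANKRD1 at chr10:90921088-90921337.
CCN2: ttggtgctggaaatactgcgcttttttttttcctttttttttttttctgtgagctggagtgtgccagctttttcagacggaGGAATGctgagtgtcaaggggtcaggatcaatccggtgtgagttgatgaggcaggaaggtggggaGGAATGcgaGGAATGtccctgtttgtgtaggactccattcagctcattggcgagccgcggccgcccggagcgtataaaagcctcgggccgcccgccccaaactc
ANKRD1: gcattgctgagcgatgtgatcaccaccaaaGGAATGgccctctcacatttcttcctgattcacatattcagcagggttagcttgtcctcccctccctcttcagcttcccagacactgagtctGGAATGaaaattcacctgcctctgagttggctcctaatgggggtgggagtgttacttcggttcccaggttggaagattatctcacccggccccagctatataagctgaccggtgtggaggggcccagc

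The other 3 genes had 1 match each, in 1 of 2 entries for AMOTL2 and AJUBA. They are given as windows of 30 bases on the strand of the gene, at chr11:102110273-102110302 (plus) for YAP1, chr3:134374499-134374528 (minus) for AMOTL2 and chr14:22976884-22976913 (minus) for AJUBA.
YAP1: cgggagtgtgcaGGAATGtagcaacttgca
AMOTL2: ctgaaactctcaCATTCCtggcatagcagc
AJUBA: gggaagttggctGGAATGaagccaaagcaa
The letters AACNNGTT of the Grainyhead consensus, which read the same on both strands, were found in 0 of the 10 entries, against 2.999% of all entries, and the CArG box bound by the serum response factor was found in 0 of the 10 entries, against 1.159% of all. These are matches of letters in a short window and say nothing on binding.

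The deposited values are on a log2 scale. The methods of the study describe a division by mean transcript length but not how it was done on a log scale, which bears on levels compared between genes and not on differences within a gene. The values ranged from -3.76 to 17.3 with library medians of 6.71 to 6.73, and the sequencing depth behind them is unknown. Averaging a pGRHL2 value with its same-numbered pcDNA3 value gave 1 figure for all 4 numbers in every one of the 17561 genes, so that the values of a pair mirror each other and the SD is the same for both plasmids. Same-numbered libraries were therefore compared as 4 pairs, and a gene whose groups do not overlap is a gene that differed in the same direction in 4 of 4 pairs. GRHL2 itself was higher in pGRHL2 in 4 of 4 pairs, by 8.97 to 10.3. All 8 hepatoma markers examined were present, with ALB and AFP at means of 16.9 and 17.1, whereas PTPRC and CD3E of blood cells, CDH5 of endothelial cells, and COL1A2 and COL3A1 of fibroblasts were not listed in the table. Of the fibroblast list 3 of 7 genes were measured, with a summed level (log2) of 6.55 to 6.67 in pGRHL2 and 6.43 to 6.56 in pcDNA3. PDGFRA rose by 0.087 from a low level (mean of 1.65, limma adjusted p of 0.039). COL1A1 (mean of 5.82) had a log2 FC of 0.20, higher in 4 of 4 pairs (limma adjusted p of 0.084), and PDGFRB (mean of 5.08) had -0.0058. Of the endothelial list 2 of 5 genes were measured (PECAM1 and VWF, with means of 5.43 and 1.91), with a summed level of 5.52 to 5.61 in pGRHL2 and 5.49 to 5.59 in pcDNA3. Of the blood list 2 of 5 were measured, LYZ at a mean of 13.3, above each of the 10 genes, and CD14 at 4.02, with a summed level of 13.2 to 13.4 in pGRHL2 and 13.1 to 13.3 in pcDNA3. In both lists 0 genes passed the test by limma, and 0 had an unadjusted p under 0.05. Their part in the results was not tested. Library-to-library variation here may include technical variation, and p-values measure only the spread between these libraries.

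Levels of the 10 genes in the pcDNA3 libraries fell into 3 ranges (log2, described in the methods as divided by transcript length). How length was handled on the log scale is not described, so the order of the genes holds for the deposited values only. ANKRD1, a nuclear ankyrin-repeat protein best known from stressed heart muscle, was the highest with 12.5 ± 0.14 (SD, n = 4), and AJUBA, a LIM-domain scaffold of cell-cell junctions that binds LATS kinases, followed with 12.4 ± 0.086. Both were above 98.7% of all genes, and their ranges overlapped. YAP1 (10.5 ± 0.037), CCN2 (10.3 ± 0.068), CCN1 (10.1 ± 0.12), WWTR1 (9.97 ± 0.032) and TEAD4 (9.93 ± 0.019) were in the middle. Within this range, YAP1 did not overlap CCN2 and CCN2 did not overlap CCN1, whereas CCN1 overlapped WWTR1 and WWTR1 overlapped TEAD4. AMOTL2 (8.72 ± 0.076), LATS2 (8.50 ± 0.052) and TEAD1 (8.47 ± 0.072) were the lowest, and the ranges of LATS2 and TEAD1 overlapped. Because replicate means were removed from the table, these SDs hold only the part of the spread that differs between paired libraries.

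**Figure D1:**
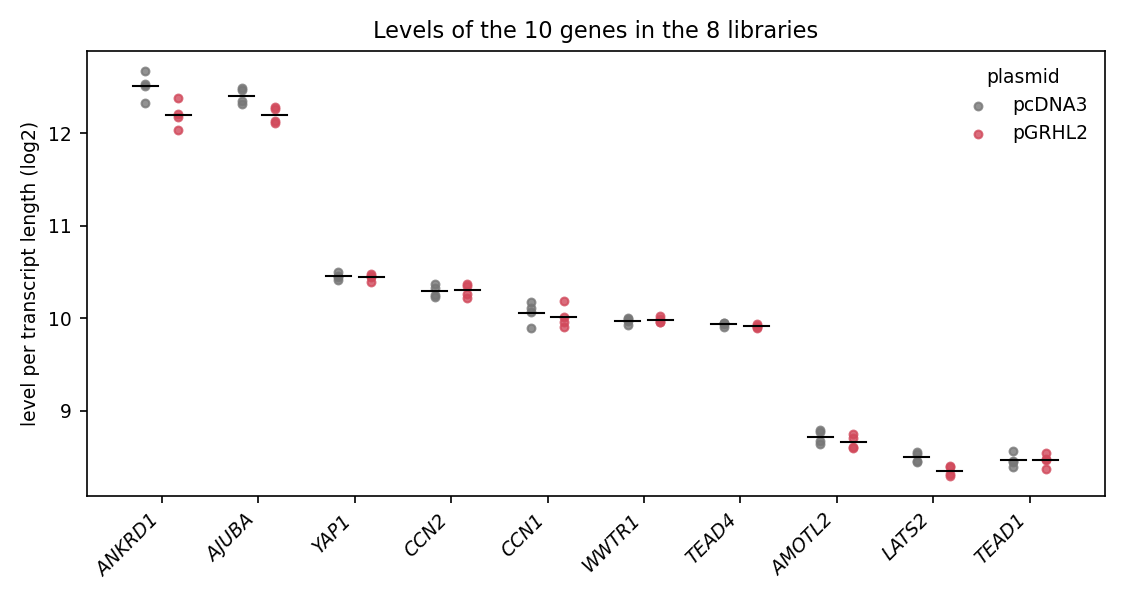
Deposited level (log2, axis labeled as per transcript length) of the 10 genes in each of the 4 pcDNA3 (gray) and 4 pGRHL2 (red) libraries. There is 1 point per library and a bar for the mean. ANKRD1 and AJUBA lie above 12 in all 8 libraries with a lower mean in pGRHL2 that did not pass the test. Within each of YAP1, CCN2, WWTR1, TEAD4 and TEAD1, the means of the plasmids nearly coincide.

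The comparison of pGRHL2 with pcDNA3 asked whether transcripts of the pathway changed upon GRHL2 ectopic expression. None did by the test used: 0 of the 10 genes were higher and 0 were lower at a limma adjusted p under 0.05, where 1.69% of all genes tested were higher and 0.501% lower. At an unadjusted limma p under 0.05, 3 of the 10 genes were lower (ANKRD1, AJUBA and LATS2) and 0 were higher, where 6.78% of all genes tested were lower at that level. Of the 10 genes, 8 had a log2 fold change (log2 FC, pGRHL2/pcDNA3) below 0, with a median of -0.035. The median was 0.0017 over all genes, 8519 of 17561 being below 0. It was -0.010 over the 10858 genes with a mean value of at least 5, of which 5951 were below 0. Groups did not overlap, with pGRHL2 lower, for 2 of the 10 genes and for 10.5% of all genes. With pGRHL2 higher, they did not overlap for 0 of the 10 genes and for 13.4% of all genes. All 10 genes had a mean of at least 5, and among the 10858 such genes lower outnumbered higher. Groups did not overlap for 1473 of these 10858 with pGRHL2 lower and for 973 with pGRHL2 higher. At a limma adjusted p under 0.05, 81 of them were lower and 73 higher, and 1011 were lower at an unadjusted limma p under 0.05.

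**Figure D2:**
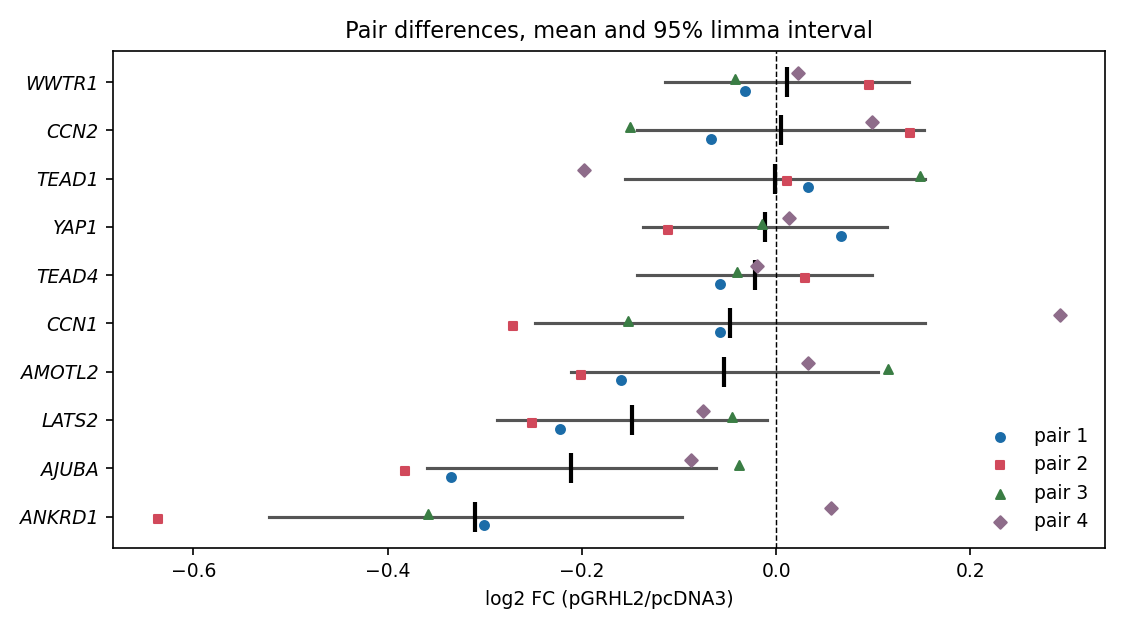
Log2 FC (pGRHL2/pcDNA3) of the 10 genes in each of the 4 pairs (symbols), with the mean (black tick) and the 95% interval of the limma fit (line), genes ordered by the mean. The intervals of ANKRD1, AJUBA and LATS2 lie below 0 before adjustment, and those of the other 7 genes span 0.

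The coactivators differed by less than the spread between pairs. YAP1, on chromosome 11 from 102110447 to 102233424 (hg38, plus strand), had values of 10.48, 10.39, 10.44 and 10.45 in pGRHL2 libraries 1 to 4, and of 10.41, 10.50, 10.45 and 10.44 in pcDNA3 libraries 1 to 4. These groups overlapped, with 2 pairs higher and 2 lower. The log2 FC of YAP1 was -0.011 ± 0.075 (SD, n = 4 pairs), with a 95% interval of -0.14 to 0.11 (limma adjusted p of 0.956).

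WWTR1, on chromosome 3 from 149517235 to 149736714 (minus strand), had values of 9.96, 10.03, 9.96 and 9.99 in pGRHL2 and of 9.99, 9.93, 10.00 and 9.97 in pcDNA3. The groups overlapped, with 2 pairs higher and 2 lower. Its log2 FC was 0.011 ± 0.063, with a 95% interval of -0.11 to 0.14 (limma adjusted p of 0.958). The ratio of WWTR1 to YAP1 inside each library, which does not depend on library scaling, differed by 0.022 ± 0.13 (log2, n = 4 pairs; exact two-sided sign-flip p = 0.875). With 4 pairs this test cannot go below 0.125.

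The same held for the DNA-binding partners. TEAD4, on chromosome 12 from 2959330 to 3040676 (plus strand), had the smallest spread of the 10 genes, with 9.89, 9.94, 9.90 and 9.91 in pGRHL2 and 9.95, 9.91, 9.94 and 9.93 in pcDNA3. Its log2 FC was -0.022 ± 0.038, with a 95% interval of -0.14 to 0.099 (limma adjusted p of 0.903). TEAD1, on chromosome 11 from 12674421 to 12944737 (plus strand), had 8.48, 8.47, 8.54 and 8.37 in pGRHL2 and 8.45, 8.46, 8.39 and 8.56 in pcDNA3. Library pair 4 pointed down and pair 3 up, so that the log2 FC of TEAD1 was -0.0013 ± 0.14, with a 95% interval of -0.16 to 0.15 (limma adjusted p of 0.996). The ratio of TEAD4 to TEAD1 inside each library differed by -0.021 ± 0.16 (exact two-sided sign-flip p = 0.875).

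Among the target genes, CCN1 and CCN2, which encode secreted matricellular proteins and are the most widely used readouts of YAP, did not pass the test. CCN2, on chromosome 6 from 131948176 to 131951372 (minus strand), had 10.26, 10.37, 10.22 and 10.35 in pGRHL2 and 10.33, 10.23, 10.37 and 10.25 in pcDNA3, so that both plasmids covered almost the same range. Its log2 FC was 0.0046 ± 0.14, with a 95% interval of -0.14 to 0.15 (limma adjusted p of 0.986). CCN1, on chromosome 1 from 85580761 to 85584589 (plus strand), had 10.01, 9.90, 9.96 and 10.18 in pGRHL2 and 10.07, 10.17, 10.11 and 9.89 in pcDNA3. CCN1 was lower in pairs 1 to 3 and higher by 0.29 in pair 4, which gave a log2 FC of -0.047 ± 0.24 and a 95% interval of -0.25 to 0.15 (limma adjusted p of 0.868). The ratio of CCN2 to CCN1 inside each library differed by 0.052 ± 0.25 (exact two-sided sign-flip p = 0.875), with differences from -0.19 in pair 4 to 0.41 in pair 2. CCN2 is the gene with the 3 TEAD matches printed above.

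ANKRD1, the other gene shown with its upstream sequence, had the lowest log2 FC of the 10 genes. It lies on chromosome 10 from 90912096 to 90921087 (minus strand) and had values of 12.20, 12.03, 12.17 and 12.38 in pGRHL2 and of 12.50, 12.67, 12.53 and 12.32 in pcDNA3. Pairs 1 to 3 were lower by 0.30 to 0.64 in size, whereas pair 4 differed by 0.057, and the groups overlapped because of pair 4. The log2 FC was -0.31 ± 0.28 (SD, n = 4 pairs), a ratio of 0.807 on the linear scale, with a 95% interval of -0.52 to -0.097 and a limma adjusted p of 0.139. Its log2 FC ranked 85 from the lowest among all 17561 genes, which include weakly expressed genes. Without replicate 4 the log2 FC was -0.43 and the limma adjusted p was 0.045, while over the other fits with the pairs kept as a block it ranged from 0.062 to 0.395. The ratio of ANKRD1 to CCN2 inside each library, chosen after its values were seen, was lower in 4 of 4 pairs, by -0.31 ± 0.32 (log2; exact two-sided sign-flip p = 0.125, the smallest possible).

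AMOTL2, an angiomotin family protein that binds YAP1 at cell junctions, lies on chromosome 3 from 134355347 to 134375479 (minus strand). Its values were 8.61, 8.59, 8.75 and 8.71 in pGRHL2 and 8.77, 8.79, 8.64 and 8.68 in pcDNA3, with 2 pairs lower and 2 higher. The log2 FC was -0.053 ± 0.15, with a 95% interval of -0.21 to 0.11 (limma adjusted p of 0.784).

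The upstream regulators LATS2 and AJUBA were the 2 genes whose groups did not overlap. AJUBA, on chromosome 14 from 22971177 to 22982551 (minus strand), had 12.13, 12.11, 12.28 and 12.25 in pGRHL2 and 12.47, 12.49, 12.32 and 12.34 in pcDNA3. All 4 pGRHL2 values were below all 4 pcDNA3 values, by a wide gap in pairs 1 and 2 (-0.33 and -0.38) and a narrow gap in pairs 3 and 4 (-0.039 and -0.087). The log2 FC of AJUBA was -0.21 ± 0.17, with a 95% interval of -0.36 to -0.062 and a limma adjusted p of 0.151.

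LATS2, on chromosome 13 from 20973036 to 21061586 (minus strand), had 8.31, 8.30, 8.40 and 8.39 in pGRHL2 and 8.54, 8.55, 8.45 and 8.46 in pcDNA3. It shared the pattern of AJUBA, with larger differences in pairs 1 and 2 (-0.22 and -0.25) than in pairs 3 and 4 (-0.046 and -0.075). The log2 FC of LATS2 was -0.15 ± 0.10, with a 95% interval of -0.29 to -0.0097 and a limma adjusted p of 0.278. Over the whole set, 8, 6, 8 and 4 of the 10 genes were below 0 in pairs 1 to 4, with median differences of -0.063, -0.16, -0.041 and 0.018. Of all 17561 genes, 8463, 8380, 8503 and 8515 were below 0 in pairs 1 to 4. Of the 10858 genes with a mean of at least 5, 5869, 5735, 5648 and 5845 were.

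The other genes of the pathway were examined as a list of 29 components, all of which were in the table. Of these, 1 gene fell, 0 rose and 28 did not pass the test, and the median log2 FC was -0.013. Over all genes tested, 0.501% fell and 1.69% rose. The gene that fell was LATS1, the paralog of LATS2, on chromosome 6 from 149658153 to 149718105 (minus strand). LATS1 had 8.68, 8.66, 8.69 and 8.68 in pGRHL2 and 9.09, 9.11, 9.08 and 9.09 in pcDNA3, so that the plasmids were far apart and the libraries of each close together. The log2 FC of LATS1 was -0.42 ± 0.025, with a 95% interval of -0.54 to -0.29 and a limma adjusted p of 0.0083. Its adjusted p ranged from 0.0047 to 0.0496 over the other fits with the block and all 4 pairs, and was 0.068 without replicate 1. The difference was smaller for LATS2 than for LATS1 in every pair: the ratio of LATS2 to LATS1 inside each library was higher in 4 of 4 pairs, by 0.27 ± 0.085 (log2; exact two-sided sign-flip p = 0.125, the smallest possible; a ratio chosen after the values were seen).

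**Figure D3:**
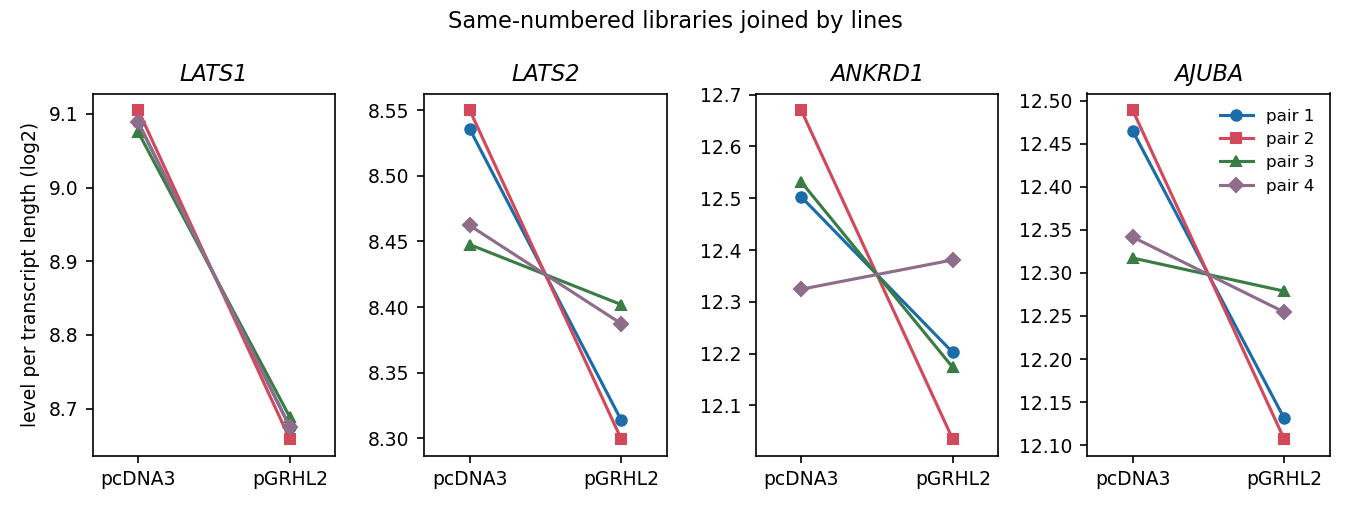
Deposited level (log2, axis labeled as per transcript length) of LATS1, LATS2, ANKRD1 and AJUBA in same-numbered pcDNA3 and pGRHL2 libraries, joined by lines. The vertical axis differs between panels. LATS1 falls by nearly the same amount in all 4 pairs, LATS2 and AJUBA differ more in pairs 1 and 2, and ANKRD1 does not go down in pair 4.

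The next largest differences among components with a mean of at least 5 belonged to STK3, which encodes the kinase upstream of LATS1 and LATS2, and WWC2, a scaffold that promotes LATS activity. For STK3 the log2 FC was -0.16 ± 0.19, lower in 3 of 4 pairs (limma adjusted p of 0.341), and for WWC2 it was -0.13 ± 0.15, also lower in 3 of 4 pairs (limma adjusted p of 0.408). The highest log2 FC among the 29 components was 0.073, for LIMD1, a LIM protein of the same family as AJUBA (limma adjusted p of 0.526). Only 22 of the 29 components had a mean value of at least 5, and the differences of weakly expressed genes are shrunken by the transformation the authors used.

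Genes commonly listed as YAP/TAZ targets, other than the 10 genes, were represented by 16 of 17 genes. PTPN14 is both in this list and among the components above, and was counted in both. Of these, 1 rose, 0 fell and 15 did not pass the test, with a median log2 FC of 0.049. By the same test 1.69% of all genes rose and 0.501% fell. FOXF2, a forkhead transcription factor, rose by 0.13 ± 0.034 (limma adjusted p of 0.014), with values of 1.76 to 1.80 in the pcDNA3 libraries and 1.88 to 1.92 in the pGRHL2 libraries, far below the library medians. Its limma adjusted p was 0.059, 0.072 and 0.062 without replicates 2, 3 and 4, and 0.034 without replicate 1. For GADD45A, a stress-response gene, the log2 FC was -0.15 ± 0.30, lower in 2 of 4 pairs (limma adjusted p of 0.519). For DOCK5, which encodes an activator of the GTPase RAC1, it was 0.15 ± 0.13, higher in 4 of 4 pairs (limma adjusted p of 0.308). In all, 3 of the 16 targets were higher and 2 were lower in 4 of 4 pairs. The 2 lower ones were F3 (-0.14) and FJX1 (-0.12), with limma adjusted p of 0.205 and 0.174. Of all genes, 13.4% were higher and 10.5% lower in 4 of 4 pairs. The median of these targets lay above 0 and that of the 10 genes below 0, and 7, 11, 3 and 6 of the 16 targets were below 0 in pairs 1 to 4. Of the other CCN family genes, CCN3 to CCN6, 0 were in the table.

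CCN1, CCN2 and ANKRD1 are also induced by serum and growth factors, so immediate-early and serum response genes were placed beside them. Of 17 such genes in the table, 4 fell, 0 rose and 13 did not pass the test, and the median log2 FC was -0.14. The share of all genes that fell was 0.501%, and the share that rose was 1.69%. KLF10, a TGF-beta-inducible repressor, fell by 0.64 on the log2 scale, with an SD of 0.27 over the 4 pairs (limma adjusted p of 0.014). The AP-1 genes FOSB, FOS and JUNB had log2 FC of -0.54 ± 0.20, -0.44 ± 0.25 and -0.39 ± 0.20 (limma adjusted p of 0.0086, 0.045 and 0.042). JUN and FOSL1 had -0.30 ± 0.17 and -0.25 ± 0.34, with limma adjusted p of 0.078 and 0.323, and were lower in 4 and 2 of 4 pairs. Not all of the list leaned down: 13 of the 17 genes had a log2 FC below 0 and 4 above 0. EGR2 (0.19 ± 0.11) and NR4A1 (0.15 ± 0.11) were the 2 genes higher in 4 of 4 pairs, with limma adjusted p of 0.091 and 0.209. Another 6 of the 17 were lower in 4 of 4 pairs, among them SRF (-0.15 ± 0.060, limma adjusted p of 0.219). Of all genes, 13.4% were higher and 10.5% lower in 4 of 4 pairs. All 4 genes that fell did so in 4 of 4 pairs. Each lost its call when certain pairs were dropped: FOSB without replicate 3 (limma adjusted p of 0.063), KLF10 without replicates 1, 2 and 3 (0.080, 0.067 and 0.052), FOS likewise (0.190, 0.159 and 0.124) and JUNB likewise (0.205, 0.169 and 0.145). The median of the 17 genes was -0.18, -0.29, -0.066 and 0.13 in pairs 1 to 4. Pair 2 was the lowest and pair 4 the highest in this list and in the 10 genes alike. Pair 2 was also the lowest for the 29 components (-0.040) and the 16 targets (-0.078), where pair 3 was the highest (0.031 and 0.15). The 8 hepatoma markers had medians of -0.0055, 0.32, -0.046 and -0.13 in pairs 1 to 4. Whether the immediate-early genes and ANKRD1 share a source of variation between pairs was not tested.

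**Figure D4:**
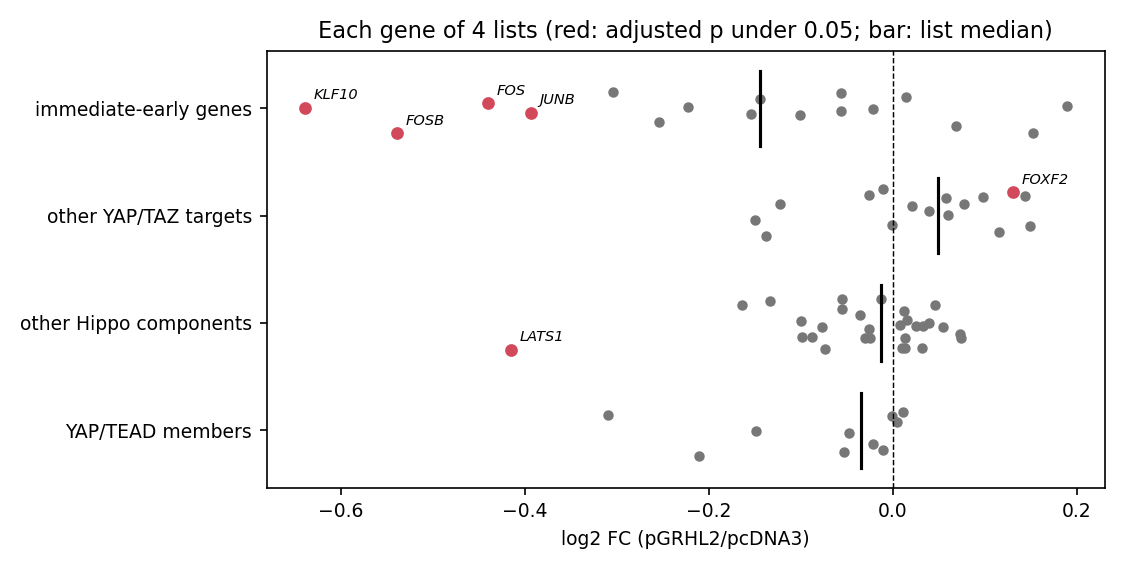
Log2 FC (pGRHL2/pcDNA3) of each gene in 4 lists, with genes at a limma adjusted p under 0.05 in red and labeled, and a bar at the median of each list (vertical position within a list has no meaning). The YAP/TEAD list has 0 red points, the other components hold LATS1, and the immediate-early genes hold 4 red points from -0.64 to -0.39.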

How the data were processed

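Paired-end mRNA-seq reads of 8 HepG2 libraries were mapped by the authors to hg38 and counted over exons without regard to strand; the submitters' processing notes name HISAT2 2.2.1, HTSeq 0.9.1 and DESeq2 1.40.2. The deposited values are log2 values, which the methods describe as rlog values (DESeq2) divided by mean transcript length, although the table is named as FPKM. Same-numbered means were identical in 17561 of 17561 genes (largest spread 1.5e-13), an adjustment the methods do not describe. It makes the correlation check of the pairing void, so the replicate number, taken from the labels, was kept as a block. A stray character was stripped from 1 value. Across 17537 genes matched to GENCODE release 44 (99.863%), the slope of the mean value on log2 mean transcript length was -0.0812.

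limma 3.58.1 (R 4.3.3; lmFit, eBayes with trend, block with 3 residual degrees of freedom, Benjamini-Hochberg over all 17561 genes, threshold 0.05) was the test, with 95% intervals from the moderated variance. The members and lists were chosen with earlier results of these data known. Genes named beyond the 10 were those of a list with an adjusted p under 0.05 plus the 2 others with the largest log2 FC in size among genes with a mean of at least 5. LIMD1, PTPN14, F3, FJX1, EGR2, NR4A1 and SRF were named outside this rule. Besides the stated alternatives, no pseudocount was tried, since the values are already log2. Exon bases shared with another gene, whose reads unstranded counting treats as ambiguous, made up 11.9% in CCN2, 10.1% in YAP1, 9.05% in WWTR1 and 3.03% in LATS1. They made up 2.89% in AMOTL2, 0.85% in AJUBA and 0 in the other 5 of these 11 genes. Among the other genes named by the rule above, the largest shares were 21.8% in WWC2 and 14.2% in JUNB.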

Additional observations from a re-analysis of the deposited data

Results flagged for a closer look

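Of 23 genes examined (GRHL2, the 10 YAP/TEAD genes and 12 others named by the rule), 1 had a pair far from the other 3, and chance alone gives about 1 in 20. STK3 differed by 0.115 in pair 4, against -0.29 to -0.24 in pairs 1 to 3. Since paired values mirror each other, this is the same gap in both plasmids.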

How the results depend on the processing

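Of the 10 genes, 0 passed the threshold in the fits with robust eBayes, without trend, with arrayWeights, with equal library medians, with quantile normalization, with a mean of at least 0 or 5, or at an adjusted p under 0.01. Without the replicate block, which counts the removed replicate means as free information, 3 of the 10 genes were lower. These were LATS2 (-0.15), ANKRD1 (-0.31) and AJUBA (-0.21), with limma adjusted p of 0.024, 0.034 and 0.025. In that fit 2 Hippo components, 3 other YAP/TAZ targets and 2 immediate-early genes were higher. There, 1 Hippo component, 2 other targets and 6 immediate-early genes were lower. Of all genes, 1821 were higher and 1427 lower without the block. Leaving out replicates gave 0 to 1 of the 10 genes lower (ANKRD1 without replicate 4), 0 to 1 Hippo components and 0 to 4 immediate-early genes lower, 0 to 1 other targets higher, and 79 to 156 of all genes higher and 8 to 68 lower; fewer pairs lower the power.

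Signs turned for genes near 0, all without a call: with quantile normalization YAP1 was 0.015, TEAD1 0.015 and TEAD4 0.0088, and with arrayWeights TEAD1 was 0.0094 and CCN2 -0.0017. Leaving out replicates, the log2 FC ranged from -0.038 to 0.022 for YAP1, -0.017 to 0.029 for WWTR1, -0.051 to 0.064 for TEAD1, -0.16 to 0.027 for CCN1, -0.040 to 0.056 for CCN2 and -0.43 to -0.20 for ANKRD1. The within-library ratios ranged from -0.067 to 0.134 for CCN2/CCN1, -0.039 to 0.063 for WWTR1/YAP1 and -0.087 to 0.035 for TEAD4/TEAD1.

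Of the other targets, 0 were higher without trend, 0 at 0.01 and 0 with a mean of at least 5, a filter that removes FOXF2 before testing. The 4 immediate-early calls became 0 without trend, 2 with quantile normalization and 1 at 0.01. Over the whole table, higher and lower genes numbered 4 and 2 without trend, 503 and 221 with arrayWeights, 184 and 57 with quantile normalization, and 77 and 10 at 0.01. With a mean of at least 5, 63 were higher and 81 lower. The causes were not tested. Read depth was unknown, so the smallest detectable difference of a weakly expressed gene could not be given.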
